A study of Mus musculus with 6 samples.

Results

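Contacts around 10 imprinted genes that lie outside the large imprinted clusters were compared between mouse embryonic stem cells with wild-type CTCF and cells with a CTCF protein lacking zinc finger 8. The genes are Impact, Grb10, Igf2r, Airn, Gnas, Nnat, Plagl1, Rasgrf1, Zdbf2 and Zrsr1, taken by name from a list of imprinted genes, out of 47042 autosomal RefSeq genes with a position. Each gene was placed in the 50 kb bin of its transcription start on mm10 and was read together with the bins and bin pairs within 1 Mb on either side. The study measured contacts by in situ Hi-C, in which crosslinked chromatin is cut (here with MboI), joined inside the nucleus and sequenced, so that each count is a ligation between 2 stretches of DNA. All 6 libraries came from embryonic stem cells of strain 129. The 3 libraries called WT have the genotype label wild type, and the 3 libraries called Del8 have the label GFP-CTCF-Del8. The design text describes the control line as expressing GFP-CTCF, so whether the WT libraries carry the GFP tag is not settled, and the number of clones behind each line is not given in the sources used here. It speaks of biological replicates but does not say what separates them, so p-values measure the spread between these libraries.

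Genomic imprinting is the expression of a gene from one parental copy according to marks set in the germ line. The mark is usually DNA methylation at a control region, kept after fertilization by ZFP57, KAP1 and DNMT1. CTCF binds DNA through its zinc fingers at domain boundaries, where it stops loop extrusion by cohesin, and at several imprinted control regions it binds the unmethylated copy. The files give 1 count per bin pair, so the maternal and paternal copies were read together, and they hold no expression, so neither the cell type label nor imprinted expression could be checked against markers.

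The libraries held 24038030 to 36233407 contacts in WT and 38088173 to 66266759 in Del8, within chromosomes. WT replicates 1 and 2 stood apart: 38.1% and 38.6% of bins had lost coverage there, against 0.0292% to 9.85% in the other libraries. In the coverage of usable bins WT replicate 3 lay nearer to the Del8 libraries (chi-square per degree of freedom 2.51 to 2.87) than to WT replicates 1 and 2 (4.58 and 5.19). The analysis therefore used the 27789 of 47875 autosomal bins (58.0%) that kept coverage in every library, with a median of 1052 to 1443 contacts per bin in WT and 1495 to 2449 in Del8. All 10 genes had a usable start bin. Of the 41 bins in a gene's window, 41 were usable at Nnat, 37 at Gnas and Zrsr1, 31 to 33 at Impact, Igf2r, Airn, Plagl1 and Zdbf2, 21 at Grb10 and 17 at Rasgrf1.

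The insulation score is log2 of the balanced contact in a 500 kb square that spans a bin, over the chromosome's mean. A low score means little contact across the bin, and a rise means more contact across it. Impact, Nnat and Zdbf2 rose in Del8, Gnas fell, and Grb10, Igf2r, Airn, Plagl1 and Zrsr1 did not pass the test (limma, Benjamini-Hochberg adjusted p under 0.05 over 22035 scored bins). Thus 4 of the 9 scored start bins (44.4%) passed. Over all scored bins 32.2% rose and 30.5% fell, 62.7% in either direction, so passing the test was common across the genome and the share at these genes was below it. By overlap alone, 34.1% of all scored bins were higher and 32.7% lower in every Del8 library than in every WT library. The median difference of the 9 bins was 0.02 and that of all bins 0.00. With WT replicate 3 as the lone WT library, the differences were 0.54 at Impact (limma adjusted p = 1.27e-05), 0.22 at Zdbf2 (adjusted p = 0.00521) and -0.11 at Gnas (adjusted p = 0.0354). In such fits the Del8 libraries alone give the spread, and the lone WT library is assumed to vary like them. With a looser screen that keeps the bins WT replicates 1 and 2 had lost, 0 of 10 start bins passed, 2 having an unadjusted p under 0.05. Over all 36012 bins of that fit 0 passed as well, 4421 having an unadjusted limma p under 0.05. The loss of calls was thus not particular to these genes. The differences were then 0.28 at Impact, 2.79 at Zdbf2, -0.60 at Gnas, -0.25 at Nnat and 0.86 at Rasgrf1. As 0 start bins passed with that screen, its differences, the one at Nnat included, were not taken as sizes of a change. Over the 13 alternative settings of each gene, differences reached 11.86 at Plagl1, 3.40 at Zrsr1, 0.90 at Grb10 and -0.44 at Igf2r. At Airn they lay between -0.10 and 0.08.

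**Figure D1:**
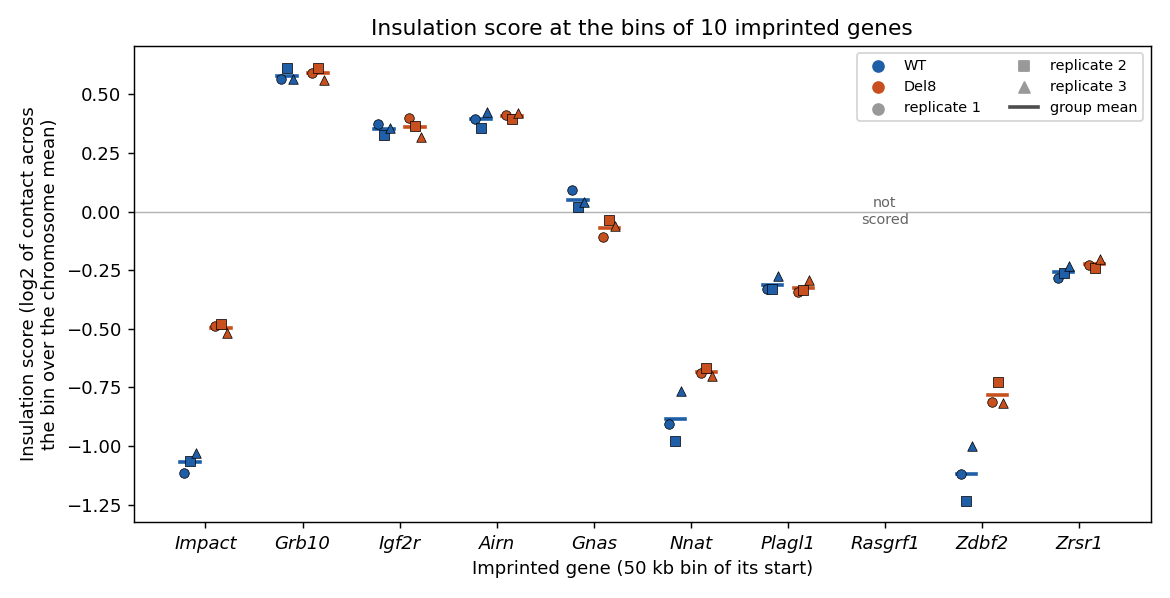
Insulation score (log2) at the start bin of each of the 9 scored genes, with 1 point per library, coloured by group, and a line at each group's mean. The points of WT and Del8 are apart at Impact, Zdbf2, Nnat and Gnas and overlap at Grb10, Igf2r, Airn, Plagl1 and Zrsr1.

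Impact encodes a protein that restrains GCN2, the kinase that lowers protein synthesis when amino acids run short. The gene occupies chromosome 18, 12954690 to 12992950, inside the bin 12950001 to 13000000, which was itself a boundary, that is, a local minimum of the score on the map of the 6 libraries together, with 0.2 as the least prominence. Its insulation score was -1.11, -1.06 and -1.03 in the WT libraries, given here and below in the order of replicates 1 to 3, against -0.49, -0.48 and -0.52 for Del8. Every Del8 library lay above every WT library. The mean rose from -1.07 ± 0.04 (SD, n = 3) to -0.50 ± 0.02 (SD, n = 3), a difference of 0.57 (SE 0.04, limma adjusted p = 5.82e-07), or 1.49-fold more contact. Of all scored bins 0.422% rose by more. This was the largest change among the 9 scored genes.

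The raw counts behind the score at Impact show the same groups. Across the bin, pairs joining its lower 500 kb to its higher 500 kb held 395, 420 and 524 contacts in WT, against 1461, 1059 and 904 in Del8. Divided by the contacts expected from distance, chromosome and library, these were 0.421, 0.441 and 0.442 in WT, against 0.659, 0.674 and 0.666 in Del8, a 1.53-fold difference without overlap. Over all scored bins, 34.4% were higher and 30.7% lower in Del8 without overlap by this ratio. Contact across Impact thus stayed below the expected value in every library and was less depleted in Del8. Among bins on the higher side alone, the log2 of observed over expected contact was 0.09, 0.13 and 0.09 in WT. In Del8 it was -0.04, 0.03 and 0.06, lower without overlap. Among bins on the lower side alone it was 0.15, 0.14 and 0.21 in WT, against 0.17, 0.22 and 0.23 in Del8, with overlap. The exact permutation p for the higher side was 0.10, the smallest possible with 3 against 3 libraries. How many of all bins have such a side without overlap was not counted.

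Zdbf2, a paternally expressed gene of the brain and pituitary with a part in growth after birth, starts at chromosome 1, 63200358 and ends at 63314576. Its start bin, 63200001 to 63250000, also holds the start of Gpr1. Its scores were -1.12, -1.23 and -1.0 in WT, against -0.81, -0.72 and -0.81 in Del8. All 3 Del8 libraries were higher than all 3 WT libraries, by 0.33 (SE 0.06, limma adjusted p = 0.000359), or 1.26-fold. It was the lowest score of the 9 genes, in the lowest 1.22% of scored bins. Contacts across it numbered 434, 405 and 585 in WT, against 1383, 1025 and 868 in Del8, 0.355, 0.324 and 0.376 of the expected value against 0.480, 0.502 and 0.488.

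The boundary nearest to Zdbf2 lay 150 kb to its lower side, at 63050001 to 63100000, where no gene starts. Its mean score rose from -1.28 ± 0.03 (SD, n = 3) in WT to -1.0 ± 0.03 (SD, n = 3) in Del8 (limma adjusted p = 0.000207). The whole stretch next to Zdbf2 had low scores, and the bin 50 kb to the higher side rose by 0.34 (limma adjusted p = 0.000491). The alternative promoter of Zdbf2 at 63273019 lies in that higher bin.

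Nnat encodes neuronatin, a small membrane protein of the endoplasmic reticulum, and sits inside an intron of Blcap, which starts in the same bin. The gene lies at chromosome 2, 157560078 to 157562525, in the bin 157550001 to 157600000, which was a boundary. The scores were -0.91, -0.98 and -0.77 in WT, against -0.69, -0.67 and -0.70 in Del8. WT replicate 3 was the WT library closest to Del8, though the groups did not overlap. The score rose by 0.20 (SE 0.05, limma adjusted p = 0.0047), or 1.15-fold. The ratio of observed to expected contact across the bin did overlap, at 0.718, 0.719 and 0.856 in WT, against 0.885, 0.908 and 0.855 in Del8. Without WT replicates 1 and 2, the libraries with lost bins, the rise was 0.08 and no longer passed (limma adjusted p = 0.133). With the looser screen of bins its direction turned, to -0.25 (adjusted p = 0.37).

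Gnas encodes the stimulatory G protein alpha subunit, which couples hormone receptors to adenylyl cyclase, together with other transcripts from alternative promoters. It lies at chromosome 2, 174284320 to 174346744, and its first start is in the bin 174250001 to 174300000, a boundary with a score close to the chromosome's mean. The scores were 0.09, 0.02 and 0.04 in WT, against -0.11, -0.04 and -0.06 in Del8. Here the Del8 libraries were all lower, by 0.12 (SE 0.03, limma adjusted p = 0.00542), or 0.921-fold. The bin 50 kb further on, which holds the starts of 3 other Gnas promoters in the table, fell by 0.14 (limma adjusted p = 0.00104). Contacts across the first start were 1.19, 1.15 and 1.15 times the expected value in WT, against 0.995, 1.05 and 1.02 times in Del8. With a 250 kb square the value at Gnas was 0.08 and did not pass (limma adjusted p = 0.315).

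**Figure D2:**
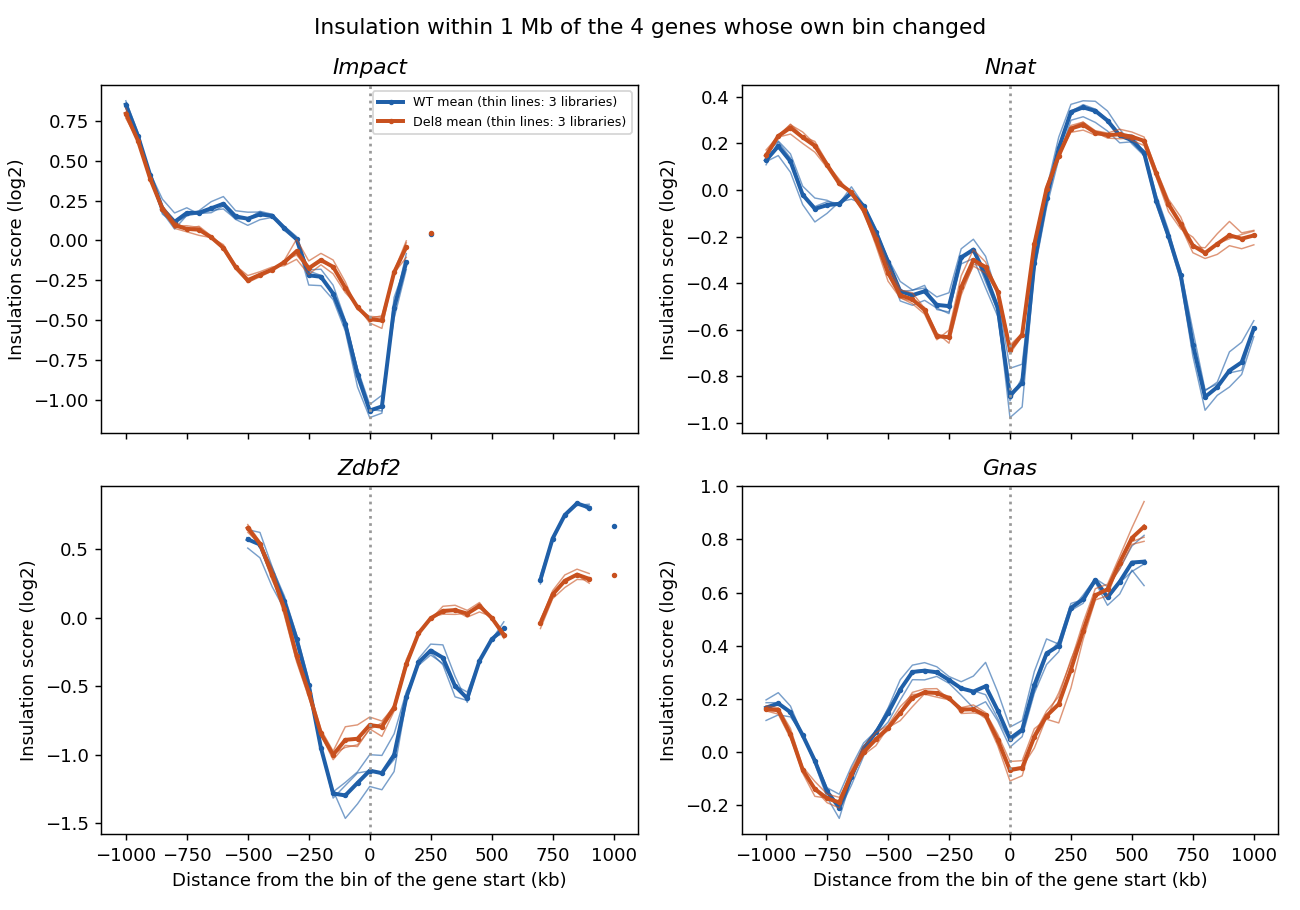
Insulation score (log2) against distance from the start bin (kb) around Impact, Nnat, Zdbf2 and Gnas, with 1 line per library, coloured by group; gaps are bins that could not be scored. At Impact and Zdbf2 the Del8 lines lie above the WT lines over several neighbouring bins, at Nnat in a narrow trough, and around Gnas they lie below.

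The promoters of Zdbf2, Nnat and Gnas are printed because these are start bins whose score changed and the table of promoters gives them, 300 bases each from 250 before the start, from RefSeq (GRCm38.p6, the mm10 assembly), plus strand. Capitals mark TGCCGC or its reverse GCGGCA, the hexamer that ZFP57 binds when it is methylated.
Zdbf2 at chr1:63200108-63200407: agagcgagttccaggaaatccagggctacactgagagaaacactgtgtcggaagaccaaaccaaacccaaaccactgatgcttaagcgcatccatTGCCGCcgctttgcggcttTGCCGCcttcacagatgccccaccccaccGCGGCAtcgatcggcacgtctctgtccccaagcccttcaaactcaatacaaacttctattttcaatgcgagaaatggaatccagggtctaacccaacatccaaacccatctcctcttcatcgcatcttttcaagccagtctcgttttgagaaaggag
Nnat at chr2:157559828-157560127: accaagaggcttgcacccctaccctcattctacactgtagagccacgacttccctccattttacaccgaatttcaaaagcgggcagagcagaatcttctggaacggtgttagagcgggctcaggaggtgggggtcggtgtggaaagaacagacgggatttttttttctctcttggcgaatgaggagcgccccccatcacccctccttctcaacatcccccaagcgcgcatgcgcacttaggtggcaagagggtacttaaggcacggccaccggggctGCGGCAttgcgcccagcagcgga
Gnas at chr2:174284070-174284369: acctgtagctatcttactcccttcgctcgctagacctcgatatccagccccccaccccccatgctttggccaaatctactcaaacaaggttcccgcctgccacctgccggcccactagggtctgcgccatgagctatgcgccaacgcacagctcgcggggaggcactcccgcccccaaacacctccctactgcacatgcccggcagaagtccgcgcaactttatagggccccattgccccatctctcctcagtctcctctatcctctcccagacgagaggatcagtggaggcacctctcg
The hexamer occurs 3 times at Zdbf2, 1 time at Nnat and 0 times at the first start of Gnas, and these promoters hold 15, 17 and 16 CpG dinucleotides, against a median of 7 over all promoters in the table. The table matched 9 of the 10 genes with 14 promoters, and Impact was not matched. The hexamer was in 4 of the 14, against 11.6% of 32851 promoters. It was also at the starts of Grb10 and Plagl1, whose scores did not pass, 1 time each, and those promoters hold 45 and 26 CpG dinucleotides. A match is a run of letters and not a measured site, and imprinted control regions outside these windows were not searched.

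The other 5 scored genes differed by 0.01 to 0.03 on the log2 scale in absolute value. Grb10, an adaptor that dampens insulin receptor signalling, starts on the minus strand of chromosome 11 (gene at 11930499 to 12037428) in the boundary bin 12000001 to 12050000. Its scores were 0.56, 0.61 and 0.56 in WT, against 0.59, 0.61 and 0.56 in Del8. Their mean was higher than 96.3% of scored bins, so the bin was a local minimum among high scores. Raw contact across it was nevertheless below the expected value in every library. The ratios of observed to expected were 0.844, 0.756 and 0.746 in WT, against 0.759, 0.745 and 0.747 in Del8. Only 7 of its 41 window bins were scored. The difference in score was 0.01 (SE 0.03, limma adjusted p = 0.792). Igf2r, the receptor that clears IGF2 and is expressed from the maternal copy, and Airn, the paternal antisense RNA that silences it, start in adjoining bins of chromosome 17, so their windows share nearly all bins. Igf2r (12682406 to 12769706) scored 0.37, 0.33 and 0.36 in WT, against 0.40, 0.36 and 0.32 in Del8 (limma adjusted p = 0.83). Airn (12741311 to 12859884) scored 0.40, 0.36 and 0.43 in WT, against 0.41, 0.39 and 0.42 in Del8 (limma adjusted p = 0.648). In both genes the groups overlapped.

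Plagl1, a zinc finger transcription factor of an imprinted growth network, starts with the noncoding Hymai in the bin 13050001 to 13100000 of chromosome 10. Its scores were -0.33, -0.33 and -0.27 in WT, against -0.34, -0.34 and -0.29 in Del8 (limma adjusted p = 0.75). The boundary nearest to Plagl1 was the adjoining bin, at Sf3b5, with a difference of 0.02 that did not pass. Zrsr1, an intronless copy of a splicing factor gene inside an intron of Commd1, lies at chromosome 11, 22972005 to 22976496. It scored -0.28, -0.26 and -0.23 in WT, against -0.23, -0.24 and -0.20 in Del8, with overlap and a difference of 0.03 (SE 0.03, limma adjusted p = 0.311).

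Rasgrf1, a guanine nucleotide exchange factor for Ras and Rac whose imprint is on the paternal copy, could not be scored. Only 17 of its 41 window bins were usable, which left 45 bin pairs across its start bin, 89900001 to 89950000 of chromosome 9. Those pairs held 814, 824 and 1073 contacts in WT, against 1671, 1172 and 1052 in Del8. They were 1.10, 1.08 and 1.14 times the expected value in WT, against 0.952, 0.947 and 0.976 times in Del8. This was lower in Del8 without overlap, as at 30.7% of all scored bins, and 0.866-fold on average. Among bins on the lower side alone (10 pairs) the ratio was 0.978, 0.928 and 0.882 in WT. In Del8 it was 0.809, 0.789 and 0.792, also without overlap, so the fall was not particular to contact across the start bin. On the higher side alone the groups overlapped. The smallest p that an exact permutation of 3 against 3 libraries can give is 0.10, which is the value across the bin and on the lower side.

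Some scores change because a broad stretch changes, so the depth of each dip was also taken, as the score minus the mean of the scores 250 kb to either side. It could be measured at 7 genes. The dip at Impact was -1.0, -0.997 and -0.94 in WT, against -0.38, -0.45 and -0.46 in Del8, shallower by 0.55. At Nnat it was -0.83, -0.86 and -0.71 against -0.52, -0.46 and -0.52, and at Zdbf2 -0.77, -0.88 and -0.60 against -0.54, -0.47 and -0.52. Zrsr1, whose score did not pass, also had a shallower dip, -0.45, -0.45 and -0.47 against -0.38, -0.31 and -0.29. Its own bin differed by only 0.03, while the bins 250 kb to its lower and higher side differed by 0.17 and -0.37. The shallower dip at Zrsr1 thus came more from its flanks than from its own bin. At Nnat the bins 250 kb to the lower and higher side differed by -0.13 and -0.07. Its dip therefore changed by more (0.30) than its score (0.20). These 4 genes had no overlap between groups (two-sided exact permutation p = 0.10, adjusted over 7 genes 0.175). The dip at Gnas differed by 0.03 and that at Plagl1 by 0.04, both with overlap. Airn lay above its flanks in every library, by 0.54 to 0.69, and the groups overlapped. Over all bins with a dip 29.7% were higher and 34.2% lower in Del8 without overlap.

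Across the 2 Mb windows, 59 of 212 distinct scored bins rose, 65 fell and 88 did not pass, with a median of -0.01, where 32.2% of all scored bins rose and 30.5% fell. The squares of neighbouring bins overlap, so runs of like calls are not separate observations, and differences between windows were not tested. Around Gnas 18 of 32 scored bins fell and 2 rose, around Zrsr1 16 of 34 fell and 7 rose, and around Plagl1 7 of 22 fell and 3 rose. Around Nnat 17 of 41 rose and 7 fell, around Zdbf2 15 of 28 rose and 7 fell, and around Igf2r 6 of 21 rose and 0 fell. At Impact 8 of 25 rose and 9 fell, and all 9 that fell lay on the lower side. Grb10 had 1 fall among 7 scored bins and Rasgrf1 1 rise among 2. The windows held 10 distinct boundaries, of which 3 rose (Impact, Nnat and the one next to Zdbf2), 3 fell and 4 did not pass, where 48.4% of all 1212 boundaries rose and 15.3% fell.

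**Figure D3:**
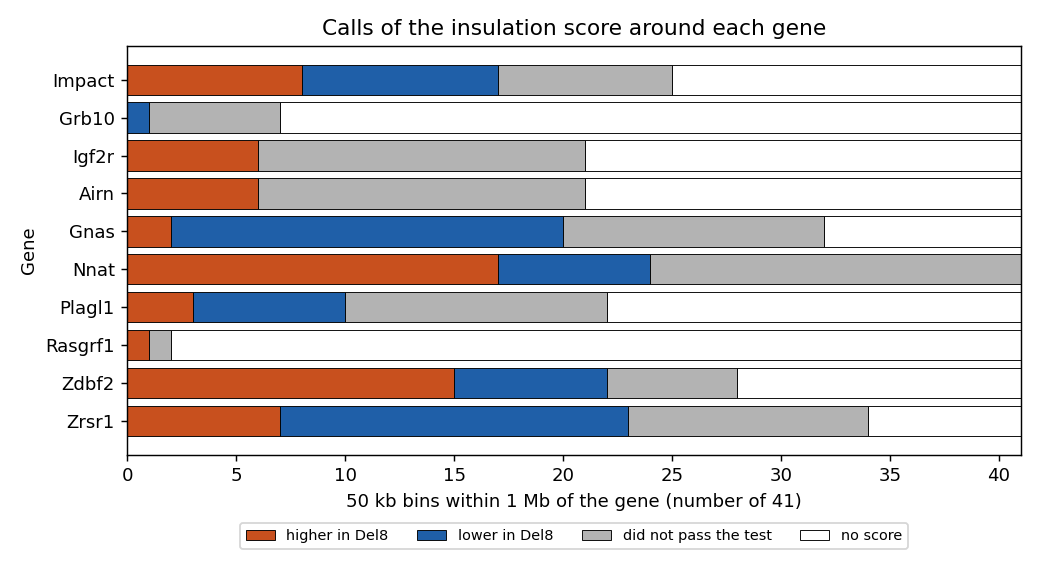
Number of scored 50 kb bins within 1 Mb of each gene that rose, fell or did not pass the test (limma, adjusted p under 0.05) in Del8. Falls outnumber rises around Gnas (18 against 2) and Zrsr1 (16 against 7), and rises outnumber falls around Nnat (17 against 7) and Zdbf2 (15 against 7); Igf2r and Airn share nearly all their bins.

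The largest changes in these windows were mostly not at the imprinted gene. In the Zdbf2 window the bin at 63600001 to 63650000, which holds the start of Gm39653, rose by 0.62, from -0.59 to 0.03. In the same window the bin of Klf7, a Krüppel-like transcription factor, fell by 0.52, from 0.81 to 0.29. In the Nnat window the bin at 158350001 to 158400000 rose by 0.62, from -0.89 to -0.27. The 3 boundaries that fell were Gnas itself, the one at Mroh8 and Rpn2 300 kb from Nnat (by 0.13) and the one at 1700093K21Rik 550 kb from Zrsr1 (by 0.34). The largest fall near Zrsr1 was at Xpo1, the nuclear export receptor (by 0.38), and the largest near Gnas was at Ctsz and Nelfcd (by 0.23). In the Zrsr1 window the bin at 23950001 to 24000000, 1000 kb to the higher side, rose by 0.56, from -0.54 to 0.02. Near Plagl1 the bin of Phactr2 rose by 0.26, and near Igf2r and Airn the bin of Plg, the plasminogen gene, rose by 0.24. At Impact its own bin held the largest rise of its window, and the largest fall, by 0.39, lay 500 kb to its lower side.

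Single bin pairs anchored at the start bins were tested with edgeR's quasi-likelihood test on raw counts, with the count expected at each distance as offset. Of 215 distinct anchored pairs 1 rose and 4 fell (Benjamini-Hochberg adjusted p under 0.05 over 324466 pairs), where 0.905% of all pairs rose and 0.83% fell. An unadjusted edgeR p under 0.05 was found for 28 of the 215 and for 47390 of the 324466. The pair that rose joined Impact to the bin of Ttc39c, 400 kb away, with 8, 3 and 3 contacts in WT, against 24, 28 and 17 in Del8. Its log2 fold change was 1.56 (SE 0.44, edgeR adjusted p = 0.0408), and it reached the mean count of 10 through the Del8 libraries. It no longer passed without any 1 of WT replicates 2 and 3 and Del8 replicates 1 to 3 (edgeR adjusted p = 0.0656 to 0.214). No other anchored pair rose. Without WT replicates 1 and 2, where the spread comes from Del8 alone, the 5 pairs had edgeR adjusted p-values of 0.106 to 0.469.

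The 4 pairs that fell belonged to Nnat, Plagl1 and Zrsr1. Nnat and Ghrh, the growth hormone releasing hormone gene 250 kb away, had 96, 135 and 113 contacts in WT, against 156, 112 and 108 in Del8. Against the expected counts the log2 fold change was -0.57 (SE 0.13, edgeR adjusted p = 0.00657), which no longer passed without WT replicate 2 (-0.39) or Del8 replicate 1 (-0.54). The Del8 libraries are deeper, so an equal raw count there is a lower relative contact.

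Zrsr1 lost contact with the bin 350 kb to its lower side, at 22600001, with 43, 53 and 47 contacts in WT, against 51, 35 and 39 in Del8. The log2 fold change was -0.98 (SE 0.21, edgeR adjusted p = 0.00306), and without WT replicate 2 it was -0.85 with an adjusted p of 0.0533. The bin at 22700001, with 45, 27 and 44 against 53, 28 and 25 contacts, also fell (-0.87, SE 0.23, edgeR adjusted p = 0.0287), and passed no more without WT replicate 1 or 3 or any 1 Del8 library. The fourth pair, of Plagl1 with the bin at 13400001, had relative contacts that overlapped between groups (log2 fold change -0.75, SE 0.21, edgeR adjusted p = 0.0339), and passed no more without WT replicate 1, Del8 replicate 1 or Del8 replicate 2. Over all 50 kb pairs the relative contacts were higher in 9.97% and lower in 9.13% without overlap.

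Within the windows, 15 of 2648 distinct pairs rose and 16 fell, where 0.905% of all pairs rose and 0.83% fell. With 1 library left out the counts were 6 to 11 and 3 to 13, the fewest rises without Del8 replicate 2 and the fewest falls without Del8 replicate 1. A pair spanning Impact, from the bin of Osbpl1a to that of Hrh4, the histamine H4 receptor gene, had 16, 6 and 11 contacts in WT, against 59, 33 and 35 in Del8, a log2 fold change of 1.24 (edgeR adjusted p = 0.0138). Near Zdbf2 the bins of Dytn and Klf7 lost contact, with 20, 25 and 37 contacts in WT against 24, 11 and 12 in the deeper Del8 libraries (log2 fold change -1.54, edgeR adjusted p = 0.000875). In that window the pair 63500001 with 63750001 rose (log2 fold change 1.62), its contacts numbering 5, 7 and 7 under WT and 43, 28 and 24 under Del8, so it reached the mean count of 10 through the Del8 libraries. A pair spanning Gnas, between the bins of Stx16 and Edn3, fell by 1.19 on the log2 scale.

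Of 23 distinct 50 kb pairs between these genes and listed neighbours, 0 passed in edgeR and 0 in DESeq2. An unadjusted edgeR p under 0.05 was found for 1 of them, that of Impact and Hrh4. Of all 324466 pairs 5630 passed in edgeR and 1191 in DESeq2, and 47390 had an unadjusted edgeR p under 0.05. Impact and Hrh4, in adjoining bins, had 51, 58 and 65 contacts in WT, against 187, 107 and 93 in Del8 (log2 fold change 0.50, edgeR adjusted p = 0.0629). Igf2r and Airn had 118, 122 and 134 against 252, 200 and 156 (0.04, adjusted p = 0.909), and Grb10 and Ddc 30, 35 and 33 against 62, 46 and 31 (-0.17, adjusted p = 0.792).

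Bins of 100 kb, chosen after the data were seen, hold more contacts per pair. Each joins a gene's start bin with an adjoining 50 kb bin, so its contacts are those of both together. With them, 14 of 109 distinct anchored pairs passed, 7 higher and 7 lower, where 7.76% of all 100 kb pairs rose and 6.55% fell (edgeR, adjusted over 89772 pairs). Impact gained contact with the next bin, that of Hrh4, with 112, 118 and 131 contacts against 374, 237 and 214 (log2 fold change 0.55, adjusted p = 7.74e-05). Its 100 kb bin, 12900001 to 13000000, also gained contact with that at 13300001, from 30, 23 and 28 to 108, 70 and 67 (0.84, edgeR adjusted p = 0.00197). In 50 kb bins, Impact's own bin did not pass with 13300001 (0.04, edgeR adjusted p = 0.98) or 13350001 (0.88, adjusted p = 0.349). The pair that passed was 12900001 with 13350001 (1.78, edgeR adjusted p = 0.0329). It had 3, 3 and 4 contacts in WT against 26, 21 and 13 in Del8, and does not include the Impact bin. That pair reached the mean count required for testing through the Del8 libraries. Zdbf2 gained with the bin of Ino80d, a chromatin remodelling subunit, on its lower side, from 53, 45 and 38 to 150, 108 and 99 (0.73, adjusted p = 0.00086). On its higher side Zdbf2 gained with the bin of Fastkd2 and Mdh1b, from 19, 17 and 17 to 70, 55 and 45 (0.91, adjusted p = 0.00624, which did not pass without WT replicate 3), and with that of Dytn (0.90, adjusted p = 0.0134, which did not pass without WT replicate 2, WT replicate 3 or Del8 replicate 3). Both pairs of Impact's 100 kb bin lie on its higher side, and the Zdbf2 pairs lie on either side of Zdbf2.

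Among the 100 kb pairs that fell, Gnas lost contact with bins 600 kb away on either side, that of Rab22a (79, 80 and 117 contacts in WT, 140, 109 and 88 in Del8, log2 fold change -0.54, edgeR adjusted p = 0.00401) and 174800001 (83, 73 and 88 against 115, 71 and 69, -0.78, adjusted p = 0.000117). Zrsr1 lost contact with the bins at 22600001 (145, 151 and 181 against 208, 159 and 142, -0.67, edgeR adjusted p = 3.61e-06) and 22700001 (-0.56, adjusted p = 0.000132). Plagl1 lost contact with the bin of Phactr2 (154, 132 and 148 against 212, 136 and 152, -0.54, edgeR adjusted p = 0.000431). The Gnas, Zrsr1 and Plagl1 pairs, and those of Impact, passed with any 1 library left out. Nnat rose with the adjoining bin (0.34) and fell with that of Mroh8, Rbl1 and Rpn2 (-0.32), Rasgrf1 rose with that of Adamts7 and Morf4l1 (0.43), and the shared bin of Igf2r and Airn fell with that of Tcp10c (-0.95), and each of these 4 stopped passing when 1 library was left out. Without WT replicates 1 and 2 together, a fit whose spread comes from the Del8 libraries alone, the pairs of Impact with both bins, Zdbf2 with Ino80d and with Fastkd2 and Mdh1b, Gnas with Rab22a, and Zrsr1 with both bins had edgeR adjusted p-values of 0.000405 to 0.0280, and those of Plagl1 with Phactr2 (-0.35) and Gnas with 174800001 (-0.64) did not pass. For Nnat the libraries that mattered singly were WT replicate 1 or Del8 replicate 1 for the rise and any of WT replicates 2 and 3 and Del8 replicates 2 and 3 for the fall, for Rasgrf1 WT replicate 2, and for Igf2r and Airn any of WT replicates 1 and 3 and Del8 replicates 2 and 3.

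Contacts of each start bin were also summed on either side, from 100 kb to 1 Mb, over the expected sum. Of 20 sides, 3 were higher and 6 lower in Del8 without overlap, and 11 overlapped, where 19.8% of all sides were higher and 19.6% lower without overlap. Impact toward its lower side went from -0.53, -0.54 and -0.61 in WT to -0.22, -0.28 and -0.20 in Del8 on the log2 scale, the largest difference of the 20 (0.32). Zdbf2 toward its higher side went from -1.05, -1.16 and -1.15 to -0.89, -0.80 and -0.89. Nnat toward its lower side, which holds Ghrh, went from 0.76, 0.85 and 0.73 to 0.56, 0.56 and 0.55. The sides that were lower also included the higher side of Grb10 (by 0.30) and of Igf2r (by 0.14, though 0.01 higher at 100 to 500 kb and 0.06 higher with the lower coordinate as its start), both sides of Rasgrf1 (by 0.23 and 0.12) and the lower side of Zrsr1 (by 0.22), and the lower side of Plagl1 was higher by 0.23. The exact permutation p of each was 0.10, the smallest possible, and 0.222 adjusted over the 20 sides.

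**Figure D4:**
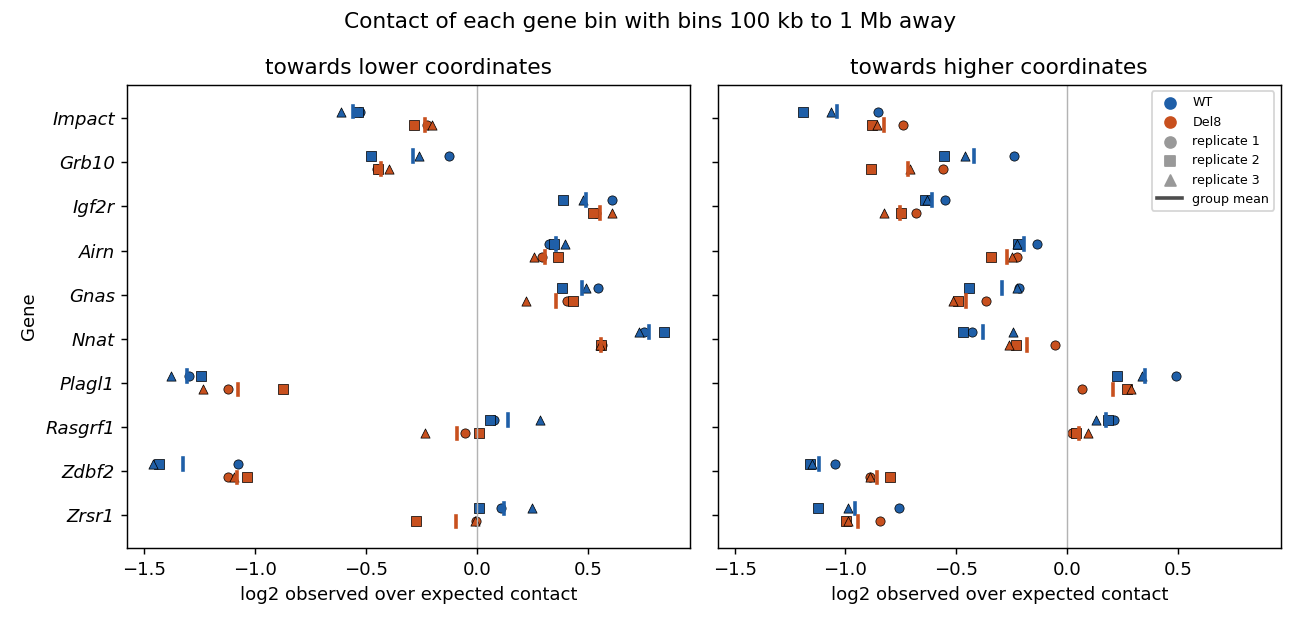
Log2 of observed over expected contact between each gene's start bin and the bins 100 kb to 1 Mb away on its lower and higher side, with 1 point per library, coloured by group. Impact's lower side and Zdbf2's higher side are higher in all Del8 libraries, and Nnat's lower side is lower in all of them.

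Genes known to set, maintain or erase imprints, and other imprinted genes inside and outside the clusters, were read from the same fit. The lists were chosen with earlier results of these data known, so their counts are not independent support. The shares over all scored bins include bins without a gene start, and a difference from other gene starts was not tested. In the list of 17 genes that set, maintain or erase imprints, 15 start bins were scored. Of these 13 rose, 0 fell and 2 did not pass, with a median of 0.17. Over all scored bins 32.2% rose and 30.5% fell. The 2 were Zfp445, a zinc finger protein that acts with ZFP57, and Ctcf. Dppa3, which protects the maternal genome from demethylation after fertilization, rose by 0.60 (limma adjusted p = 2.92e-06), the dioxygenase gene Tet1 by 0.28, Uhrf1, which brings DNMT1 to replicating DNA, by 0.23, Dnmt1 by 0.21 and Zfp57 by 0.09. Of 41 other imprinted genes, 25 distinct start bins were scored: 5 rose, 9 fell and 11 did not pass (56.0% passed), with a median of -0.03. The paternally expressed Mest fell by 0.35 and Copg2 next to it by 0.32, Kcnq1ot1, the RNA that silences the Kcnq1 domain, fell by 0.31, and the shared bin of the growth factor gene Igf2 and Ins2 rose by 0.25. Of 16 scored bins of listed neighbours, 7 rose, 2 fell and 7 did not pass, but those of Blcap, Hymai, Commd1 and Gpr1 are the start bins of Nnat, Plagl1, Zrsr1 and Zdbf2 counted above.

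The bins whose 6 scores lay nearest to those of Impact, among 9047 bins with a protein-coding start over 2 Mb away, were that of Ift122 and Mbd4 on chromosome 6 (Euclidean distance 0.113, rise 0.52), that of Alg8 on chromosome 7 (0.133, rise 0.50) and that of Efcab12 and Rpl32 on chromosome 6 (0.147, rise 0.60). For Grb10, among 9059 bins, those near it included the bins of Prss35 (0.0933) and Cdh11 (0.111).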

How the data were processed

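For each library the authors deposited a file of raw counts, whole numbers of contacts between 50 kb bins of the same chromosome. The build is mm10 per the submitters' processing notes. Which aligner and read filters were used is not given in the sources used here. Within-bin counts were even in every library, which is how a contact listed from both ends would look, and were not used.

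Coverage was scaled per library, and a bin was usable at 0.5 or more of the third highest library and above 0.1 of its own scale. Maps were balanced per chromosome without the diagonal, and insulation scores needed 50% of the 500 kb square. Scores were fitted with limma 3.58.1 (eBayes with trend) and pairs of usable bins 50 kb to 1 Mb apart with a mean count of 10 or more with edgeR 4.0.16, over all 6 libraries without covariates. DESeq2 1.42.0 was an alternative. The offset was the mean count at the same distance, chromosome and library. Starts follow the strand of the promoter table. Impact has no strand there, and both its ends lie in 1 bin.

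All 10 genes are named. One of the bins with scores like those of Grb10 is not reported here. Anchored pairs named are up to 3 per gene in each direction, and window bins those with the largest rise and fall. Window pairs and 100 kb pairs were picked after their values were seen. The members and gene lists were chosen with earlier results of these data known. The fits were tested on simulated data. There edgeR recovered 7% of pairs changed 1.5-fold and 51% of those changed 2-fold, so a pair that did not pass may still differ. For limma the shares were 72% of score differences of 0.2 and 96% of those of 0.4. No library was a copy of another (the lowest chi-square per degree of freedom was 1.60).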

Additional observations from a re-analysis of the deposited data

How the results depend on the processing

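No insulation call at Impact, Zdbf2, Nnat or Gnas changed side or direction when any 1 library was left out. The screen of bins matters most. With a looser one (20 contacts per library) limma called 0 start bins, 0 window bins and 0 boundaries, and 0 of all 36012 bins. An unadjusted limma p under 0.05 was found for 2 of 10 start bins, 46 of 346 window bins and 4421 of all 36012. Impact was at 0.28 (limma adjusted p = 0.383) and Nnat reversed to -0.25. In edgeR 0 anchored and 0 window pairs passed, and 0 of all 451625 pairs. Unadjusted, 25 of 231 anchored, 357 of 3416 window and 41373 of all 451625 pairs had an edgeR p under 0.05. With this screen 0 flank sides were higher. With a 250 kb square 0 start bins fell, Gnas reversed to 0.0768, Zrsr1 passed (0.15, limma adjusted p = 0.0378), Rasgrf1 could be scored (-0.04, adjusted p = 0.522), and 5 boundaries rose and 1 fell. At a prominence of 0.1, 6 boundaries rose, and at 0.3, 1 fell. Of anchored pairs, 0 rose and 1 fell with DESeq2 (window 4 and 3). In DESeq2 21 of 215 anchored pairs and 29044 of all 324466 had an unadjusted p under 0.05. In edgeR 0 anchored pairs rose at a mean count of 1 or with balancing weights and 2 at a mean of 20. With 100 kb bins 7 rose and 7 fell (window 57 and 56). Without WT replicates 1 and 2, 0 anchored pairs fell, 1 window pair rose and 2 fell, 3 anchored 100 kb pairs fell, and 6 flank sides were higher and 11 lower, a count that 1 WT library against 3 raises by design, since a lone value often lies outside the range of 3. With 1 library left out, anchored pairs that rose ranged from 0 to 3 and fell from 1 to 3, 100 kb ones from 5 to 7 and 5 to 8, window pairs that rose from 6 to 11 and fell from 3 to 13, flank sides higher from 3 to 6 and lower from 6 to 10. Flank sides higher numbered 5 at 100 to 500 kb, lower 3 with balanced contact, and Igf2r's higher side reversed to 0.0134 at 100 to 500 kb and to 0.0627 with the lower coordinate as its start. Replicate numbers do not pair the libraries (correlations of same-numbered libraries -0.03, -0.01 and -0.08). With the replicate block 0 anchored pairs rose, the Impact pair being at 1.53 (edgeR adjusted p = 0.0578). Centring the libraries moved the calls over all bins from 32.2% higher and 30.5% lower to 28.4% and 35.0%. The causes were not tested. Of 215 anchored pairs, 28 had an unadjusted edgeR p under 0.05 and 5 passed the adjustment. Of all 324466 pairs, 47390 and 5630 did. Whether depth sets this was not tested.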

Other observations

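The contacts listed within a start bin were not used above, since they are even in every library. They order the libraries differently from the contacts between bins. At Impact they numbered 232, 250 and 148 in WT replicates 1 to 3, while contacts across the bin numbered 395, 420 and 524. At Zdbf2 they numbered 224, 236 and 128 against 434, 405 and 585, and at Plagl1 178, 146 and 104 against 740, 703 and 913. WT replicate 3 thus had the fewest contacts within these bins and the most across them of the WT libraries. The same held at Grb10, Igf2r, Gnas, Nnat, Rasgrf1 and Zrsr1. At Airn, where WT replicate 3 had 322 within the bin against 312 and 292, this was not so. The whole library was alike: 8095976 within-bin contacts over 45760 bins, against 7497622 over 28858 and 7523862 over 28835. Contacts between autosomal bins numbered 28046436 against 16539567 and 16987502, so the order was not particular to these genes.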
